A study of Sus scrofa with 6 samples.

Results

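Cathepsins are proteases of the lysosome, the acid compartment in which cells break down proteins. The cathepsin genes described here are the entries of the deposited gene table whose symbol is CTSA, CTSB, CTSC, CTSD, CTSH, CTSK, CTSL, CTSS, CTSZ or LGMN. Of these 10 symbols, 8 were carried by an entry, and CTSL was carried by 2 entries, which gave 9 entries out of 22861 in the table. No entry carried CTSD, which was not analysed here. LGMN was not carried as a symbol either. An entry with only the identifier ENSSSCG00000002452, which the reference list of names calls LGMN, is given beside the members and is not counted among them. All 9 entries passed the filter on low counts.

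RNA of abdominal aorta was sequenced in 6 pools. The 3 lesion pools (replicates 1, 2 and 3) came from 11 Wisconsin Miniature Swine with familial hypercholesterolaemia (WMS FH), an inherited excess of blood cholesterol, whose tissue carried atherosclerotic lesions. The 3 lesion-free pools (replicates 4, 5 and 6) came from 11 normal swine of that breed (WMS normal). The labels do not name the FH allele, the diet, the sex, the age or the animals in each pool, which makes the pool the replicate, and lesions and swine line cannot be told apart. Pools held 4650176 counts in lesion replicate 1 and 8492673 to 11442433 in the others. Levels are given as CPM, read counts scaled to a common library size. Of 8 smooth muscle markers, which define the aortic media, 5 had an entry and together reached 29116 to 42022 CPM in lesion pools and 67429 to 78975 CPM in lesion-free pools. In these bulk samples, more cells of a type and more RNA per cell cannot be told apart.

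Cathepsins are made as inactive precursors, tagged with mannose 6-phosphate in the Golgi, delivered to endosomes and activated there by loss of a propeptide. Most are cysteine proteases held in check by cystatins, among them the secreted cystatin C. Macrophages are rich in several of them and can also release them, and in the artery wall some cathepsins are known for cutting elastin and collagen.

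The comparison asked which cathepsin genes had another level in aorta with lesions than in aorta without them. CTSS, CTSH, CTSZ and CTSB were higher in lesion pools, by 22.9-fold, 5.04-fold, 2.69-fold and 2.27-fold. CTSK and CTSC lay above every lesion-free pool in every lesion pool but were not called. CTSA and the more abundant CTSL entry showed log2 folds close to 0, and their lesion pools lay on both sides of the lesion-free pools. A gene is called when its limma p, adjusted by Benjamini and Hochberg over all 11673 genes tested, is under 0.05. By that rule 4 of 9 entries were higher and 0 were lower, where 0.968% of all genes tested were higher and 0.0771% lower. At an unadjusted p under 0.05, 7 of the 9 passed, as did 10.6% of all genes tested. In 6 of the 9 entries every lesion pool lay above every lesion-free pool, as in 10.4% of all genes tested. The median log2 fold was 1.18 over the 9 entries and 0.00 over all genes tested. The number of entries called higher was 2 without lesion-free replicate 5 or 6.

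**Figure D1:**
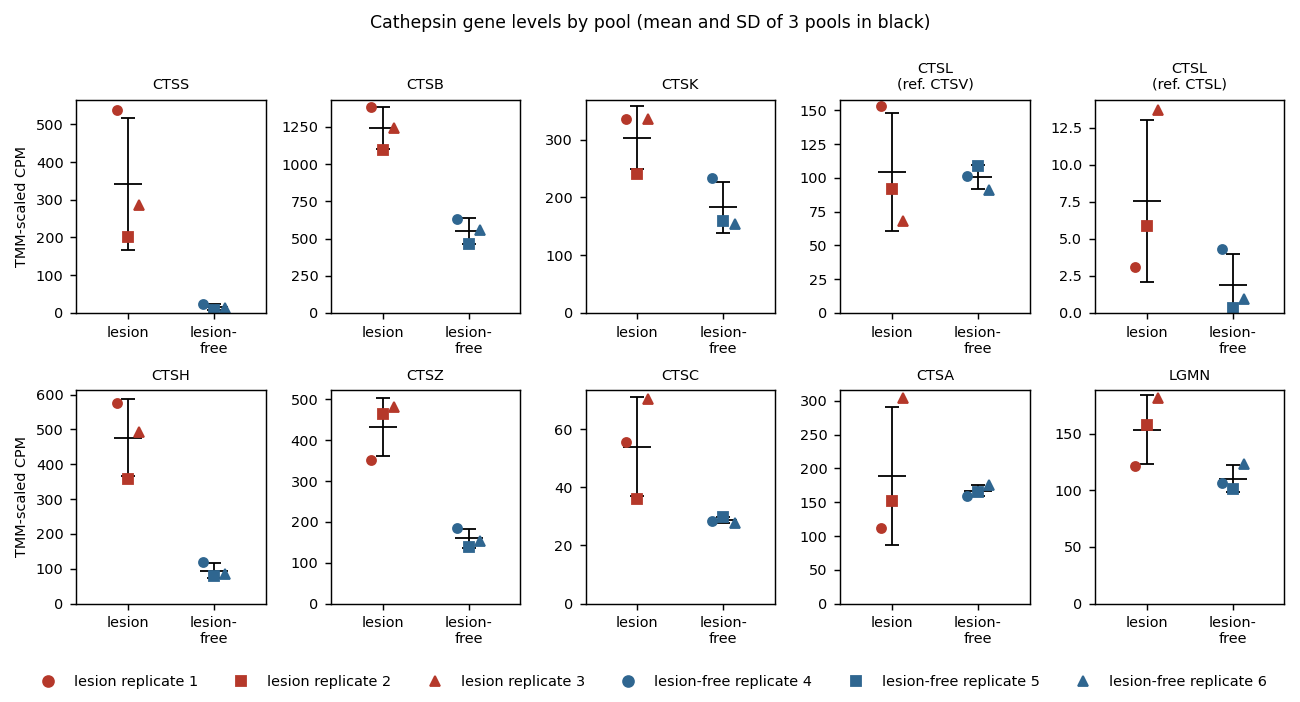
Level of each cathepsin gene in each pool, as TMM-scaled CPM (vertical axis from 0 in each panel), with lesion pools in red and lesion-free pools in blue. Black marks give the mean and SD of 3 pools. CTSS, CTSB, CTSH, CTSZ, CTSK and CTSC show no overlap between groups, while CTSA, both CTSL entries and LGMN do.

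CTSS encodes cathepsin S, an endopeptidase that keeps its activity at neutral pH and cuts the invariant chain during class II antigen processing. Its level was 539, 200.4 and 285 CPM in lesion replicates 1, 2 and 3, against 23.6, 8.87 and 11.99 CPM in lesion-free replicates 4, 5 and 6. The lowest lesion pool was thus well above the highest lesion-free pool, and lesion replicate 1 was the highest of all. The mean and SD over pools were 342 ± 176 CPM with lesions and 14.8 ± 7.77 CPM without (n = 3 each). The log2 fold was 4.52 (SE 0.47, limma adjusted p = 0.000184), with a 95% confidence interval of 11.3-fold to 46.3-fold. This gene ranked 12 of all genes tested by p and was called whichever pool was left out.

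CTSB, cathepsin B, is an abundant cysteine protease that cuts inside proteins and also trims them from the carboxyl end. Lesion pools held 1386, 1098 and 1245 CPM (replicates 1, 2 and 3), and lesion-free pools held 630.2, 461 and 558 CPM (replicates 4, 5 and 6). Here the lesion pools lay close together, and the groups did not overlap. The log2 fold of 1.18 (SE 0.26, limma adjusted p = 0.0458) stood just inside the threshold, with an interval of 1.54-fold to 3.35-fold. That call was lost without lesion replicate 1, 2 or 3, without lesion-free replicate 5 or 6, and with limma-trend, where the adjusted p ran from 0.0613 to 0.316. The log2 fold itself stayed between 1.07 and 1.35 in all alternatives tried.

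CTSK encodes cathepsin K, a strong collagenase and elastase best known from bone-resorbing osteoclasts. The lesion pools had 335, 241 and 335 CPM, and the lesion-free pools 234, 159.7 and 154 CPM, in replicate order. Lesion replicate 2 and lesion-free replicate 4 differed little, although no lesion pool fell below a lesion-free one. The log2 fold was 0.74 (SE 0.27, limma adjusted p = 0.316), an interval of 1.12-fold to 2.51-fold before adjustment for the number of genes, and no alternative called it. Of 9 osteoclast markers 7 had an entry, 5 were tested and 0 were called. An unadjusted p under 0.05 was reached by 3 of the 5, as by 10.6% of all genes tested. The summed level of the markers was 127.5 to 335 CPM in lesion pools and 19.6 to 38.9 CPM in lesion-free pools. Most of it in lesion pools came from MMP9, a gelatinase that macrophages also make. OCSTAMP, which osteoclasts need to fuse, had 0 counts in all pools, and DCSTAMP, with the same role, reached at most 2.28 CPM in lesion pools and had 0 counts in lesion-free pools. CALCR and ATP6V0D2, by contrast, were higher in every lesion pool than in any lesion-free pool. CALCR had 45.7, 10.9 and 19.5 CPM in lesion pools and 1.73, 3.47 and 1.12 CPM in lesion-free pools (limma adjusted p = 0.212). ATP6V0D2 had 2.31, 5.53 and 12.5 CPM in lesion pools and 0 counts in lesion-free pools (limma adjusted p = 0.112). TNFRSF11A and NFATC1 overlapped between groups. The part of osteoclast-like cells in the CTSK values was not tested. In the reference annotation of Sscrofa11.1, CTSK and CTSS are direct neighbours, with 0 reference genes between them. Their ratio within a pool needs no scaling between pools. The log2 ratio of CTSS to CTSK counts was 0.69, -0.27 and -0.23 in lesion replicates 1, 2 and 3, against -3.31, -4.16 and -3.68 in lesion-free replicates 4, 5 and 6. The difference between groups was 3.78 on the log2 scale, and the exact permutation p of 0.1 (two-sided) is the smallest that 3 pools against 3 allow. The ratio of CTSS to CTSB differed by 3.34 and that of CTSH to CTSB by 1.15, each with the same p and, as for CTSK, an adjusted p of 0.1 over the 3 ratios. These 3 pairs were chosen after the values were seen.

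CTSL, cathepsin L, is a lysosomal endopeptidase close in sequence to cathepsin V, and 2 entries carry its symbol. The entry ENSSSCG00000011171, called CTSV in the reference list of names, had 153, 91.9 and 68.1 CPM in lesion pools and 101, 109 and 91.2 CPM in lesion-free pools. Lesion replicate 1 was the highest and lesion replicate 3 the lowest of all 6 pools, so the groups overlapped fully. Its log2 fold was -0.06 (SE 0.30, limma adjusted p = 0.966), with an interval of 0.613-fold to 1.51-fold. The entry ENSSSCG00000010948, called CTSL in the reference, was scarce, with 16, 66 and 150 counts in lesion pools and 40, 3 and 9 in lesion-free pools. Lesion replicate 1, the pool with the lowest total, lay among the lesion-free pools at 3.08 CPM. The log2 fold of this entry was 2.61 (SE 1.19, limma adjusted p = 0.46), and its interval of 1.04-fold to 35.6-fold is too wide to tell a small difference from a large one. The counts are estimates, and whether reads were shared between these entries was not tested.

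CTSH, cathepsin H, works mainly as an aminopeptidase that trims proteins from the amino end. It had 576, 358 and 493 CPM in lesion replicates 1, 2 and 3, against 118, 78.7 and 86.0 CPM in lesion-free replicates 4, 5 and 6. All lesion pools were far above the lesion-free pools. The mean and SD over pools were 476 ± 110.4 CPM with lesions and 94.3 ± 21.0 CPM without (n = 3 each). CTSH was called under every alternative tried, with log2 folds between 2.18 and 2.53 around the value of 2.33 (SE 0.28, limma adjusted p = 0.00052).

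CTSZ, also called cathepsin X, is a carboxypeptidase that removes single residues. Lesion pools held 352, 465 and 482 CPM and lesion-free pools 185, 139.5 and 154 CPM, in replicate order. In contrast to CTSS and CTSH, lesion replicate 1 was the lowest lesion pool. The log2 fold was 1.43 (SE 0.26, limma adjusted p = 0.0124), an interval of 1.83-fold to 3.97-fold, and it was no longer called when lesion-free replicate 5 (adjusted p = 0.107) or 6 (adjusted p = 0.0602) was left out.

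CTSC, the dipeptidyl peptidase cathepsin C, activates the serine proteases stored in granules of neutrophils, mast cells and cytotoxic lymphocytes. It stood at 55.7, 36.1 and 70.2 CPM in lesion pools and at 28.3, 29.8 and 27.8 CPM in lesion-free pools. The lesion-free pools were nearly equal, and lesion replicate 2 was only a little above them. The log2 fold of 0.85 (SE 0.33, limma adjusted p = 0.352) was not called under any alternative. None of the 9 listed serine proteases that cathepsin C activates was tested. For 6 of them an entry was matched, and their summed level was 0.00 to 1.37 CPM in lesion pools and 0.711 to 1.08 CPM in lesion-free pools, with GZMA, GZMK and PRTN3 at 0 counts in all 6 pools. CTSG, CMA1 and TPSAB1 were not matched, so their levels are not known.

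CTSA, unlike the members above, is a serine carboxypeptidase, known as the protective protein that stabilises the lysosomal enzymes beta-galactosidase and neuraminidase. Its values were 112, 151 and 305 CPM in lesion replicates 1, 2 and 3, against 159.5, 165 and 176 CPM in lesion-free replicates 4, 5 and 6. Lesion replicate 3 was far above all other pools, and the remaining lesion pools were below the lesion-free ones. The log2 fold was 0.06 (SE 0.33, limma adjusted p = 0.967), with an interval of 0.639-fold to 1.70-fold, and it was -0.34 without lesion replicate 3. NEU1, the neuraminidase that CTSA protects, had a log2 fold of 0.08 (SE 0.45, limma adjusted p = 0.967). The entry named LGMN in the reference, for the asparagine-specific protease legumain that activates other cathepsins, had 121, 158 and 181 CPM in lesion pools and 106, 101 and 123.5 CPM in lesion-free pools. It was not called (log2 fold 0.47, SE 0.26, limma adjusted p = 0.551).

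**Figure D2:**
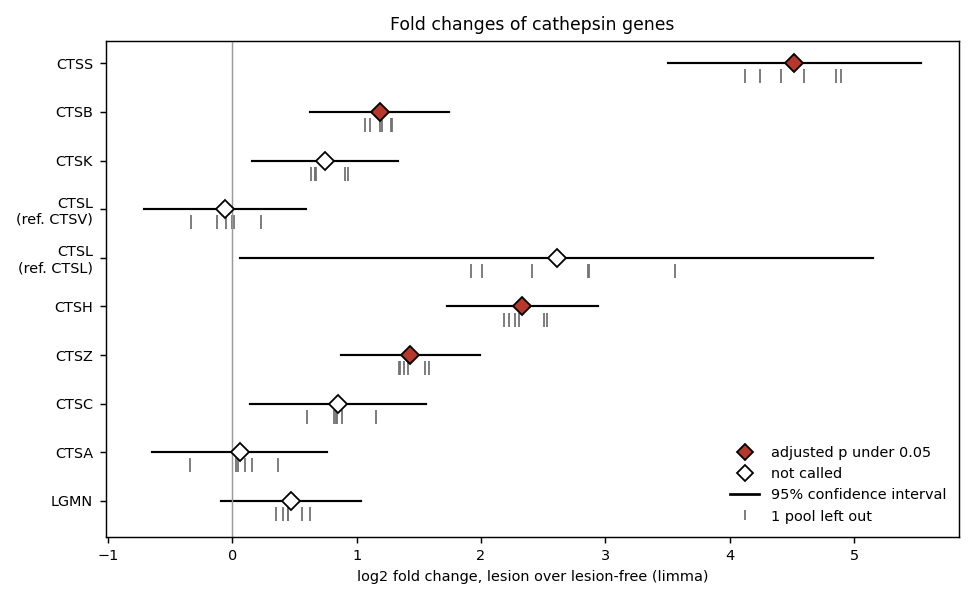
Log2 fold change of each cathepsin gene, lesion over lesion-free (diamonds, filled where the adjusted p was under 0.05), with its 95% confidence interval and, as grey ticks, the value with 1 pool left out. CTSS at 4.52 stands clear of the others that were called. CTSH is next at 2.33, and its interval overlaps those of CTSZ and CTSB. The intervals of CTSA, of LGMN and of the CTSL entry named CTSV in the reference span 0.

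As a share of all counts, the 9 entries together took 0.393%, 0.295% and 0.316% in lesion replicates 1, 2 and 3, against 0.127%, 0.113% and 0.125% in lesion-free replicates 4, 5 and 6. The make-up of those counts differed as well. CTSS supplied 10.5 ± 4.21% of the cathepsin counts in lesion pools and 1.10 ± 0.43% in lesion-free pools, and CTSH 14.96 ± 1.45% and 7.20 ± 0.66% (SD, n = 3 each). CTSB kept nearly the same share, 39.6 ± 1.86% in lesion pools and 42.3 ± 2.13% in lesion-free pools. CTSA supplied 6.05 ± 3.04% and 13.0 ± 1.97%, and CTSK 9.60 ± 0.54% and 14.0 ± 1.76%, so their shares were smaller in lesion pools. Their levels were not called lower, and the CTSK level was higher in every lesion pool than in any lesion-free pool, though not called. These shares describe counts and not molecules, since a longer transcript yields more reads, and no test was made on them.

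**Figure D3:**
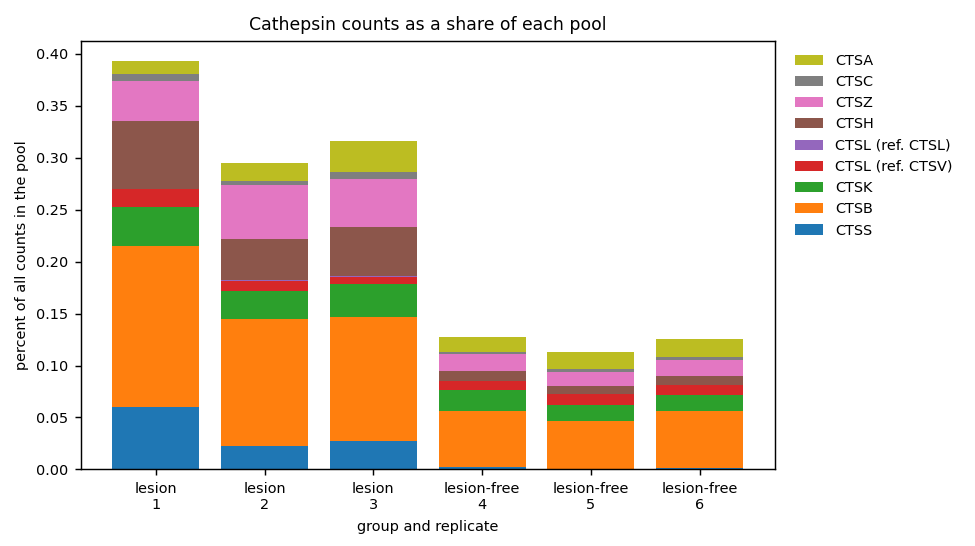
Counts of the 9 cathepsin entries as a percent of all counts in each pool, stacked by gene (LGMN is not included). The whole stack is 0.393%, 0.295% and 0.316% in lesion pools and 0.127%, 0.113% and 0.125% in lesion-free pools, and the bottom CTSS segment is hardly visible in lesion-free pools.

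Of 14 listed macrophage markers 11 had an entry and 10 were tested, with a median log2 fold of 3.05. Of the tested markers 8 were higher and 0 lower, where 0.968% of all genes tested were higher and 0.0771% lower. The summed level of the 11 markers was 1255 to 2123 CPM in lesion pools and 191 to 359 CPM in lesion-free pools. CD68, a lysosomal membrane protein of macrophages, was 16.1-fold higher, while CD163, a haemoglobin scavenger receptor, reached at most 0.711 CPM in any pool. Relative to the mean log2 level of the 10 tested markers in the same pool, CTSS was higher in every lesion pool than in any lesion-free pool, at 2.11, 1.19 and 0.98 in lesion pools and 0.68, -0.17 and 0.48 in lesion-free pools. Every other member except the scarce CTSL entry was lower in all lesion pools by this measure, as was LGMN. The difference was 1.09 for CTSS, -1.10 for CTSH, -2.00 for CTSZ, -2.25 for CTSB, -2.57 for CTSC, -2.69 for CTSK, -2.96 for LGMN, -3.38 for CTSA and -3.45 for the CTSL entry named CTSV in the reference, on the log2 scale. For each of these the exact permutation p was 0.1, the smallest possible, and the adjusted p was 0.111 over 10 ratios. TREM2, one of the markers, had 0 counts in lesion-free pools, and without it the differences of CTSS and CTSH were 1.58 and -0.62. These differences are from the mean of the markers and not from each marker. TREM2, which was not called (limma adjusted p = 0.0564), and MSR1 had larger log2 folds than CTSS, and the other tested markers had smaller ones. CD14 and CSF1R had the smallest, and CD14 was not called and overlapped between groups. Leaving out a marker other than TREM2 was not tested. Of 5 smooth muscle markers tested, 2 were lower, CNN1 and DES, where 0.0771% of all genes tested were lower. The other 3, ACTA2, TAGLN and SMTN, were not called, with log2 folds of -0.76, -0.95 and -0.93. An unadjusted p under 0.05 was reached by all 5, as by 10.6% of all genes tested. Of 7 dendritic cell markers 5 had an entry and 1 was tested, WDFY4, which was higher. FLT3, XCR1, BATF3 and CCR7 were too scarce to test, at no more than 4.035 CPM in any pool. Of these, FLT3, BATF3 and CCR7 had a lower mean in lesion pools and XCR1 a higher one. Among other cell types, 0 of 3 T cell, 0 of 7 endothelial and 0 of 5 fibroblast markers tested were called. Without adjustment, p was under 0.05 for 0, 2 and 2 of them, and for 10.6% of all genes tested. Endothelial markers summed to 507 to 660 CPM in lesion pools and 353 to 449 CPM in lesion-free pools. T cell markers with an entry summed to 9.37 to 15.5 CPM and 0 to 6.90 CPM. Summed fibroblast markers overlapped between groups, at 601 to 653.5 CPM and 546 to 665 CPM. Neutrophil markers were too scarce to test, at 0.00 to 10.8 CPM summed in lesion pools and 0 counts in lesion-free pools. The part of cell numbers in the cathepsin differences was not tested.

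Cystatin C, the product of CST3, inhibits most cysteine cathepsins outside cells. CST3 stood at 2026, 1174 and 2052 CPM in lesion pools and 1495, 724 and 704 CPM in lesion-free pools. Lesion replicate 2 lay below lesion-free replicate 4, and the gene was not called (log2 fold 0.90, SE 0.34, limma adjusted p = 0.343). The log2 ratio of CTSS to CST3 was -1.91, -2.55 and -2.85 in lesion pools and -5.98, -6.34 and -5.87 in lesion-free pools, a difference of 3.63. For CTSH the difference was 1.44, and both had an exact permutation p of 0.1 (adjusted p = 0.4 over 8 ratios). Among the other cysteine cathepsins the ratio overlapped between groups, including CTSB (difference 0.29, exact permutation p = 0.5) and CTSZ (0.54, exact permutation p = 0.4). Of the 9 listed inhibitors 5 had an entry and 2 were tested, CST3 and SERPINB1. Of these 0 were called and 1, CST3, had an unadjusted p under 0.05, as did 10.6% of all genes tested. CSTB, the intracellular cystatin B, was not matched and is not analysed here.

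**Figure D4:**
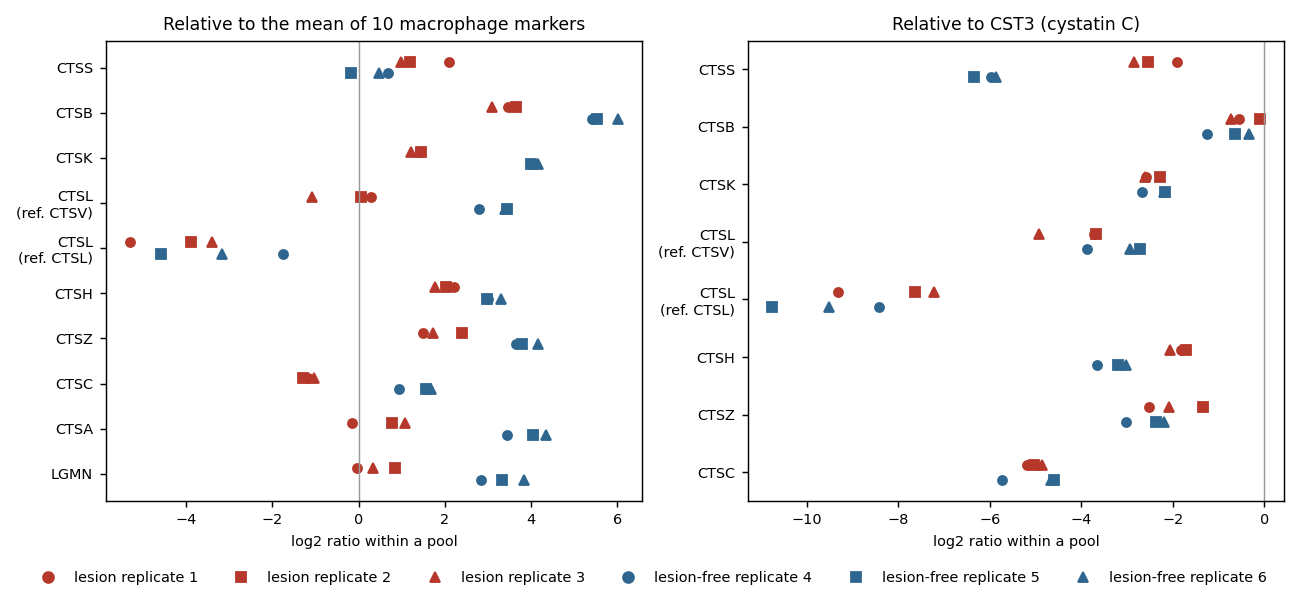
Log2 ratio of each cathepsin gene to the mean of 10 macrophage markers (left) and of each cysteine cathepsin to CST3 (right) within each pool, with lesion pools in red above lesion-free pools in blue. Against the markers CTSS lies to the right in lesion pools, by 1.09 on average, while CTSB, CTSK, CTSH, CTSZ, CTSC and CTSA lie to the left. Against CST3 the groups are apart for CTSS and CTSH.

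Other genes of the same pathway were counted from lists. Among further cathepsins 3 of 6 had an entry and 2 were tested, with 0 called and 0 at an unadjusted p under 0.05. CTSV was counted here as without an entry, although the reference gives that name to the more abundant CTSL entry described above. CTSF, a cysteine cathepsin, had a mean and SD of 106 ± 29.9 CPM with lesions and 122 ± 27.2 CPM without (n = 3 each, limma adjusted p = 0.85). Its symbol is carried by 2 entries with the same count in every pool, so reads may have been divided between them. None of 10 sorting genes, which tag and carry lysosomal enzymes, was called. GNPTAB, the phosphotransferase subunit that starts the mannose 6-phosphate tag, had the lowest p of them (log2 fold 1.14, limma adjusted p = 0.131). Of 5 lysosome regulators 0 were called, and TFEB, a master regulator of lysosomal genes, had a log2 fold of -0.67 (limma adjusted p = 0.436). TFEC, a factor of the same family, was scarce and lay on the other side, at 14.8, 5.62 and 4.56 CPM in lesion pools and 1.40, 0.00 and 0.20 CPM in lesion-free pools (log2 fold 4.41, SE 1.78, limma adjusted p = 0.386). Without adjustment, p was under 0.05 for 1 of the 10 sorting genes and 2 of the 5 regulators, and for 10.6% of all genes tested. With limma-trend, too, 0 genes of these 3 lists were called. GNPTAB, TFEB and TFEC were picked after the values were seen.

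Among the sugar- and lipid-cutting hydrolases of the lysosome, 22 of 30 had an entry, 21 were tested, 4 were higher and 0 lower, with a median log2 fold of 0.57. Of these 4, the highest fold was in LIPA, the acid lipase that frees cholesterol from its esters, whose mean and SD were 159 ± 104.3 CPM with lesions and 14.95 ± 2.29 CPM without (n = 3 each). GM2A, a lipid-binding activator, was 6.29-fold higher, ASAH1, acid ceramidase, 4.72-fold and GUSB, beta-glucuronidase, 2.84-fold. Without lesion-free replicate 5, 2 of the hydrolases were called. In the fit of all 6 pools, 0.968% of all genes tested were higher. Of 4 other lysosomal peptidases tested 0 were called, with PRCP and SCPEP1 just outside the threshold at log2 folds of 1.96 and 1.23 (limma adjusted p = 0.0504 and 0.0547). Only 2 of 6 antigen-processing partners had an entry, and both were higher. They were IFI30, a lysosomal thiol reductase, at 6.35-fold and SLA-DMA, a chain of the peptide loader, at 3.62-fold, and 1 of these calls was lost when any single pool other than lesion replicate 2 was left out. Of 10 matrix proteins that cathepsins can cut, 0 were called. FN1, fibronectin, had the lowest p of them, with 5626, 5442 and 6517 CPM in lesion pools and 1540.4, 2889 and 3451 CPM in lesion-free pools, which did not overlap (log2 fold 1.23, SE 0.32, limma adjusted p = 0.103). ELN, elastin, had 461, 634 and 871 CPM in lesion pools and 330, 360.3 and 498.5 CPM in lesion-free pools, with lesion replicate 1 below lesion-free replicate 6. At an unadjusted p under 0.05, 2 of the 4 peptidases and 3 of the 10 matrix proteins passed, as did 10.6% of all genes tested.

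The genes whose pattern was most like that of a called cathepsin were found by the root mean square difference of centred log2 CPM over the 6 pools, among 7806 candidates. For CTSS the nearest was LGALS3, the galectin of activated macrophages, at 0.21, followed by SCIN at 0.41 and CD48 at 0.41. CTSB was nearest to PSAP, the precursor of the saposins, at 0.10, then to IVNS1ABP at 0.12 and GALK2 at 0.15. CTSH was nearest to ADAP2 and CD83, both at 0.15, and SIRPB1 at 0.17. For CTSZ these were CLEC14A, an endothelial lectin, at 0.10, the entry CH242-402I11.1 at 0.14 and SLA-DQB*G07, a class II chain, at 0.14. Of the genes named here, LGALS3, SCIN, PSAP, CLEC14A and SLA-DQB*G07 were called higher in lesion pools, and the others were not called.

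In the isoform table, single isoforms of CTSA, CTSB, CTSC, CTSK, CTSS and CTSZ carried the whole count of their gene, so their isoform values repeat the gene values. CTSH was divided between CTSH-001 and CTSH-201. CTSH-201 held 487 counts in lesion replicate 1 and 399 in lesion-free replicate 4, or 16.2% and 36.4% of the CTSH counts there, and 0 in the other 4 pools. CTSH-001 was still higher in lesion pools (log2 fold 2.46, limma adjusted p = 0.00206). Together with CTSS and CTSZ it made 3 isoforms called higher and 0 lower among the 11 tested, where 0.418% of all 12666 isoforms tested were higher. CTSB lost its call in this table (limma adjusted p = 0.102). Further isoforms labelled CTSL had the counts of other gene entries, 1 of which is named DAPK1 in the reference, so the label alone does not identify cathepsin L. These isoforms are among the 11 tested, and none of them was called.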

How the data were processed

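The authors deposited a gene table and an isoform table of raw estimated read counts, 1 column per pool. The submitters' processing notes name RSEM 1.3.0 and edgeR without their roles. Which aligner and genome build were used is not given in the sources used here. Per the labels' protocols, a stranded total RNA kit was used. Values were whole numbers once digit-grouping commas were removed. Because of these commas the columns were not recorded as plain counts, and limma 3.58.1 (R 4.3.3) with voom and robust empirical Bayes was used. It ran on all genes with at least 1.00 CPM in 3 pools and 15 counts in all, after TMM scaling (trimmed mean of M values, own implementation, trimming 30% of M and 5% of A). Printed CPM use these scaled library sizes. For ratios, 0.5 was added to each count. P-values are two-sided.

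The members and lists were chosen with earlier results of these data known. All members were named. From the pathway lists, called genes with the smallest p were named, up to 3 per list, with CST3 in any case, and genes outside this are said to be so or serve to describe a member (NEU1, ELN, CTSF, ASAH1, FN1, PRCP, SCPEP1, and the cell type markers). A list symbol carried by several entries was read from the entry with most counts. No pools of 1 group looked like 1 library deposited again (chi-square per degree of freedom 23.2 to 103). Limma p-values set the difference between groups against the spread between pools, and exact permutation p-values rank it among regroupings of the pools. The spread between single animals is not seen in pools. A count of 3 equals 0.268 to 0.576 CPM, which covers counting error only. The fit was tested on simulated data. No per-length levels, promoter motifs or sequences are given, since none of the files used here holds transcript lengths or sequences. Of 7481 gene entries with only an identifier, 1723 were named from the reference.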

Additional observations from a re-analysis of the deposited data

How the results depend on the processing

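CTSS and CTSH were called in all 12 alternatives. CTSZ was called in 10 and CTSB in 6, and the other 5 entries and LGMN in 0. The count of entries called higher was 2 to 4 with 1 pool left out and stayed within that range elsewhere. Plain library totals moved the median log2 fold of all genes to 0.16, against 0.00 with TMM, and CTSL (entry named CTSV) stood at 0.10 there, below that median. With 1 pool left out it ranged from -0.34 to 0.23 (0.23 without lesion replicate 3, 0.01 omitting lesion-free replicate 5), and CTSA from -0.34 (lesion replicate 3 omitted) to 0.37. The ratio of CTSC to CST3 differed by -0.03 between groups, and by -0.40 to 0.17 with 1 pool left out, with positive values of 0.05, 0.17 and 0.14 omitting lesion replicate 1, lesion-free replicate 5 or lesion-free replicate 6. The causes were not tested.

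Among the other lysosomal peptidases, 1 was higher with median-of-ratios scaling or without a filter, and 2 with plain totals or sample quality weights, and 0 to 2 with 1 pool left out. Matrix substrates had 1 higher with plain totals. With 1 pool left out, hydrolases called higher numbered 2 to 4, antigen-processing partners 1 to 2 and isoforms 2 to 3. Over all genes, those higher numbered 54 to 213 and those lower 3 to 40 across the alternatives, against 113 and 9. No paired analysis was possible because the lesion and lesion-free pools came from different animals. The scarce CTSL entry rests on 3 to 150 counts a pool, and its log2 fold ranged from 1.92 to 3.56 with 1 pool left out.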
